A study of Mus musculus with 104 samples.

Results

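Adult muscle stem cells (satellite cells) of mice under calorie restriction (CR) were compared with those of mice on a control diet, over all times of day. The arrays were chosen by title: 54 arrays of the series come from adult animals, 32 of them CR and 22 control, and the other 50 from aged animals. All mice, controls included, carry a Per1-Venus BAC transgene (a fluorescent reporter of the clock gene Per1) on a C57B6/J background. Control mice ate without limit, and CR mice received 30% less than that intake for 25 weeks, after 3 weeks in which food was lowered by 10% a week. Adult mice were 19 to 29 weeks old when the adaptation began and aged mice 55 to 69 weeks. Cells of skeletal muscle were collected at T0, T4, T8, T12, T16 and T20, with 4 to 6 arrays per diet and time, except for a single control array at T20. The design text gives 4 mice per time and diet and the titles call the arrays biological replicates, so whether some arrays share a mouse is not given. The age tags disagree with the titles. All 22 adult control arrays are tagged 83 to 97 weeks, the tag of the aged mice, whereas adult CR arrays are tagged 47 to 57 weeks. The titles were used here, and values against the 24 aged control arrays are given for the main results. If the tags are right, the adult comparison differs in age as well as in diet, and diet and age cannot be told apart in it.

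Satellite cells are the stem cells of skeletal muscle. They lie between the fibre and its basal lamina, rest in a quiescent state and enter the cell cycle after injury. CR lowers insulin and growth factor signalling, which through the kinase mTORC1 governs how much the cell invests in ribosomes, and the daily feeding time set by CR is a known time cue for peripheral clocks. The clock itself is a loop in which the activators Clock and Arntl drive their own repressors, among them the Per proteins, and output factors such as Dbp, Tef and Hlf.

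The cells carried the markers of their label. Gpx3 and Sdc4 were the brightest of 18 measured muscle stem cell markers, with means of 12.4 and 12.2 on the log2 scale of the arrays, and the mean of the list per array ranged from 9.19 to 9.81 in control and from 9.07 to 9.77 in CR. Markers of other cells were present as well, the brightest being Gsn at 10.9 and Dpt at 10.8 (fibroadipogenic progenitors), Myh11 at 11.04 and Acta2 at 10.8 (smooth muscle) and Pmp22 at 10.8 (Schwann cells). Correlations between arrays of the same diet and time ran from 0.940 to 0.983. The CR array T20 replicate 4 stood apart from its group, with a mean correlation of 0.960 to the others, and without it 131 genes were called for level and 3 for rhythm, against 124 and 3 with it.

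The day means of few genes differed between CR and control, and by little. Of 11853 genes tested, 65 rose (0.548%) and 59 fell (0.498%), together 124 (1.05%), by limma's moderated test at a Benjamini-Hochberg adjusted p of 5%. At an unadjusted p under 0.05 there were 1548. The median fold among the called genes was 1.22, and 4 genes, all lower in CR, differed by 1.5-fold or more. The sign of the difference was the same at all 6 times for 97 of the called genes and at 5 or 6 times for 122. The count fell to 77 without the control array T16 replicate 3 and rose to 188 without the control array T0 replicate 1.

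The largest fall was that of Thy1, a surface glycoprotein of fibroblasts, neurons and T cells. Its log2 values ran from 6.75 to 9.27 with a median of 8.02 in the 22 control arrays, and from 6.64 to 8.35 with a median of 7.26 in the 32 CR arrays. The groups overlapped, with 28 of 32 CR arrays below the control median. The day mean was 1.85-fold lower in CR (log2 -0.89 ± 0.15, SE, limma adjusted p = 0.00027). This fall depends on which control arm is used. Against the aged control arrays Thy1 differed by -0.23 (limma adjusted p = 0.41), and it was among 50 genes (0.422%) that differed between the 2 control arms. In bulk RNA such as this, fewer cells of a type and less RNA per cell cannot be told apart.

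Cxcl13, a chemokine that attracts B cells, fell as far and against both control arms. It ran from 6.36 to 8.70 in control arrays (median 7.35) and from 5.08 to 7.38 in CR arrays (median 6.56). In CR, 31 of 32 arrays lay below the control median and 12 lay below the lowest control array. The difference was -0.85 ± 0.15 (1.81-fold, limma adjusted p = 0.00043), and -0.79 against aged controls (limma adjusted p = 6.2e-05).

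Dio2, the deiodinase that activates thyroid hormone, ran from 5.26 to 7.40 in control (median 6.22) and from 5.11 to 6.78 in CR (median 5.53). It fell by 0.55 ± 0.11 on the log2 scale (1.47-fold, limma adjusted p = 0.0020), with 29 of 32 CR arrays below the control median. Hgf, the growth factor known to activate satellite cells, was dim, with medians of 5.81 in control and 5.37 in CR. It fell by 0.48 ± 0.11 (limma adjusted p = 0.0092), and 30 of 32 CR arrays lay below the control median. The other probe sets of Hgf, dimmer still with means of 4.79 and 4.65, were at -0.09 and -0.05. Hgf passed under all 18 alternatives, with a smallest difference of -0.21. Igsf10, a large secreted immunoglobulin-family protein, fell by 0.71 ± 0.18 from a median of 5.08 to 4.36. It was dim too, and its CR median lay below 4.50, the cut on the mean over all arrays by which genes were kept. Steap4, a metalloreductase, fell by 0.65 ± 0.15 from a median of 8.88 to 8.19, and gave -0.45 with the mean of its probe sets (limma adjusted p = 0.064). Islr, a secreted leucine-rich protein of mesenchymal cells, fell by 0.51 ± 0.12, but differed by only -0.22 against aged controls (limma adjusted p = 0.30).

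Of the 12 largest falls, the other 5 were Dusp15, Rhbdd1, Morrbid, Tmem229a and Cpq, with differences from -0.53 to -0.47. Morrbid, a long noncoding RNA that restrains the death gene Bcl2l11 in myeloid cells, had the smallest p of these (-0.50 ± 0.09, limma adjusted p = 0.00064). Dusp15 passed narrowly (limma adjusted p = 0.044), and its call was lost in 27 of 54 omissions of 1 array and under 6 of 18 alternatives. Cpq, a carboxypeptidase, differed by -0.09 against aged controls (limma adjusted p = 0.74). The smallest p of all genes belonged to Aff2, a nuclear RNA-binding factor of the AF4 family, at -0.42 ± 0.07 (limma adjusted p = 0.00012). Its values lay between 4.13 and 6.00 in control and between 4.14 and 4.88 in CR near the floor of the scale.

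The rises were smaller. Oaz2, an antizyme that limits polyamine synthesis, led with 0.48 ± 0.09 (limma adjusted p = 0.00064). Its values ran from 6.02 to 7.64 in control (median 6.97) and from 6.78 to 8.00 in CR (median 7.45), and 10 of 32 CR arrays lay above the highest control array. Taf1d, a subunit of the RNA polymerase I selectivity factor whose introns hold small nucleolar RNAs (snoRNAs), rose by 0.40 ± 0.08, with medians of 7.74 and 8.07. Edc4, the scaffold of the mRNA decapping complex, rose by 0.25 ± 0.05 (limma adjusted p = 0.00064), with 29 of 32 CR arrays above the control median. Cish, an inhibitor of cytokine signalling, rose by 0.44 ± 0.11, and this call was lost in 8 of 54 omissions of 1 array.

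Among the 12 largest rises the others were 4833438C02Rik, Zim1, H2bc21, Ypel1, Kif24, Zfp263, Dgkz, Sh3d21 and Snapc4, with differences from 0.37 to 0.48. Snapc4 belongs to the complex that activates small nuclear RNA genes, H2bc21 encodes a histone H2B and Zim1 an imprinted zinc-finger protein. H2bc21 was dim, with medians of 4.27 in control and 4.78 in CR. Its control median lay below 4.50, the cut on the mean over all arrays by which genes were kept. For Ypel1, Kif24 and Taf1d, another probe set of the gene did not rise: the second probe set of Ypel1 gave -0.02, that of Kif24 -0.03, and the 5 others of Taf1d ran from -0.07 to 0.19. Against aged controls, Dgkz (0.03), H2bc21 (0.12), Cish (0.29), Sh3d21 (0.21) and Zim1 (0.25) no longer passed. The call of Zim1 was lost in 34 of 54 omissions of 1 array. Of 18 alternatives, Zim1 and Cish each lost their call under 7 and Zfp263 under 5, and H2bc21 lost its call under 6 of 17. Oaz2, 4833438C02Rik and Ypel1 passed under all 18.

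**Figure D1:**
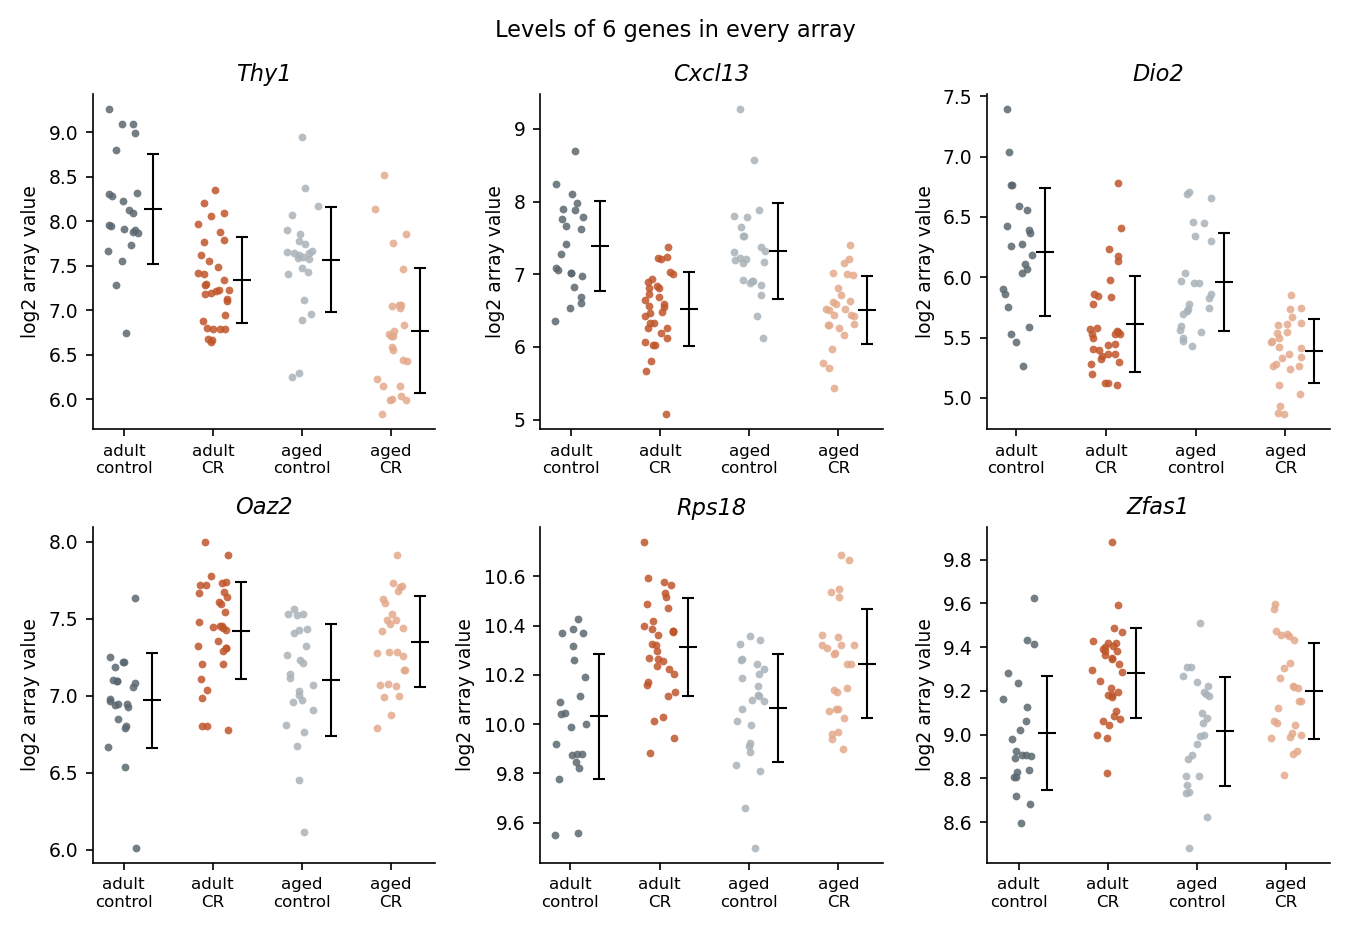
Log2 array values of 6 genes in each of the 4 arms, with 1 point per array and the arm's mean ± SD beside it (22 control and 32 CR arrays of adult mice, 24 and 26 of aged mice). Thy1, Cxcl13 and Dio2 sit lower in the CR arms of both ages, and Oaz2, Rps18 and Zfas1 sit higher in adult CR, with overlap in every panel.

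Ribosomal protein genes made up the largest group among the rises. These genes encode the structural proteins of the ribosome, and 66 of them were measured. Of the 66, 19 rose, 0 fell and 47 did not pass, against 0.548% of all genes called higher. Most of these genes are bright. Among all 1058 genes with a mean of 9 or more, ribosomal protein genes included, 29 were called higher. The difference was above 0 for 65 of the 66, with a median of 0.10 (log2), where the median of all genes was 0.01 and 6297 of 11853 were above 0. In the shorter list of 23 measured cytosolic ribosomal proteins, 7 rose and all 23 were above 0. The mean of the 66 genes per array ran from 10.6 to 11.1 in control (median 10.8) and from 10.8 to 11.1 in CR (median 10.95), so the groups overlapped.

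Rps18, a small-subunit protein, ran from 9.55 to 10.42 in control (median 10.02) and from 9.88 to 10.74 in CR (median 10.32). It rose by 0.27 ± 0.06 (1.21-fold, limma adjusted p = 0.0092), with 29 of 32 CR arrays above the control median. Rpl22, a large-subunit protein, ran from 9.09 to 9.89 in control and from 9.42 to 10.16 in CR. All 22 control arrays lay below its CR median of 9.89, and it rose by 0.26 ± 0.05 (limma adjusted p = 0.0040). Rps19 rose by 0.35 ± 0.09 and Rpl13 by 0.21 ± 0.05. Of these 4, Rpl22 and Rpl13 no longer passed with the mean of each gene's probe sets. The bright genes Rps6 and Rps2, with means of 12.2 near the top of the array scale, differed by 0.04 and 0.03 and did not pass. These 2, and the other ribosomal protein genes shown by sequence further on, were picked after their values were seen. Ribosomal protein genes have many processed copies in the genome, and reads of such copies by the same probes cannot be told apart from the gene's own.

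The direction held under every setting tried, while the number of calls did not. The 66 genes had 65 or 66 differences above 0 in all 18 alternatives and 65 in all 54 omissions of 1 array. All these settings reuse adult CR arrays and the 66 genes are not independent, so they do not repeat the result. The number called ran from 8 to 32 over the alternatives and from 7 to 34 over the omissions. It fell to 7 without the control array T16 replicate 3, to 10 without T16 replicate 2, to 11 without control T4 replicate 5, and to 12 each without control T0 replicate 3, T16 replicate 4, T20 replicate 1 and CR T12 replicate 1. It was 34 without the control array T0 replicate 1. Against aged controls 32 of 66 rose and the median was 0.10.

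Messenger RNAs of ribosomal proteins are known to begin with a run of pyrimidines, the terminal tract through which mTORC1 signalling governs their translation. The sequences around annotated gene starts were therefore read from RefSeq (GRCm38.p6), as a description of the risen genes. A tract was counted where C was followed by at least 5 further C or T letters on the gene's strand, beginning between 10 bases before and 30 bases after a start. This search was chosen after the rise of these genes was seen. The lines below show 10 bases before to 20 after the start, 5′ to 3′, with the tract in capitals.
Rps18 (chr17:33955646-33955675, minus strand): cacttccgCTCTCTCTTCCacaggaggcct
Rps10 (chr17:27635225-27635254, minus strand): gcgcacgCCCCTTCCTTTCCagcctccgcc
Fau (chr19:6057937-6057966, plus strand): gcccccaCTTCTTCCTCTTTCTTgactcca
Rplp2 (chr7:141447641-141447670, plus strand): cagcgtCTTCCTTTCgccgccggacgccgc
Rps24 (chr14:24490668-24490697, plus strand): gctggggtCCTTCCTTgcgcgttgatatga
Snhg8 (chr3:123508317-123508346, minus strand): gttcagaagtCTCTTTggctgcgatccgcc

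Of the 66 measured ribosomal protein genes, 52 had such a window and 42 of those (80.8%) held a tract. Of the 19 that rose, 16 had a window and 13 (81.2%) held one. The share in the risen ribosomal protein genes was close to that in all of them. Among all 9543 tested genes with a window 3247 (34.0%) held a tract, among the 35 other risen genes 6 (17.1%) and among the 51 fallen genes 6 (11.8%).

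Host genes of snoRNAs, which also give rise to RNAs with terminal pyrimidine tracts, rose as well. Of 10 measured by symbol (the Snhg genes, Gas5, Zfas1 and Taf1d), 5 rose and 0 fell, all 10 differences were above 0, and the median was 0.25, against 0.548% called higher and a median of 0.01 over all genes. A tract was found in 6 of the 9 with a window, and in 2 of the 5 that rose. Zfas1 rose by 0.28 ± 0.06 (limma adjusted p = 0.0049), Snhg8 by 0.24 ± 0.05 (limma adjusted p = 0.0045), Snhg16 by 0.35 ± 0.09 and Snhg5 by 0.26 ± 0.07. Gas5, the best known of this class, was at 0.11 ± 0.07 (limma adjusted p = 0.53). The host genes were grouped and named after their values were seen. The number called was 3 without the control array T16 replicate 2 or T20 replicate 1 and was also 3 with a separate fit of the 2 adult arms or with the Schwann cell score as a covariate. Of 20 factors of ribosome biogenesis, which process ribosomal RNA in the nucleolus, 18 were above 0 but 0 passed, with 2 at an unadjusted p under 0.05. The member of smallest p was Nop56, a core protein of snoRNA particles, at 0.17 ± 0.06 (limma adjusted p = 0.12).

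**Figure D2:**
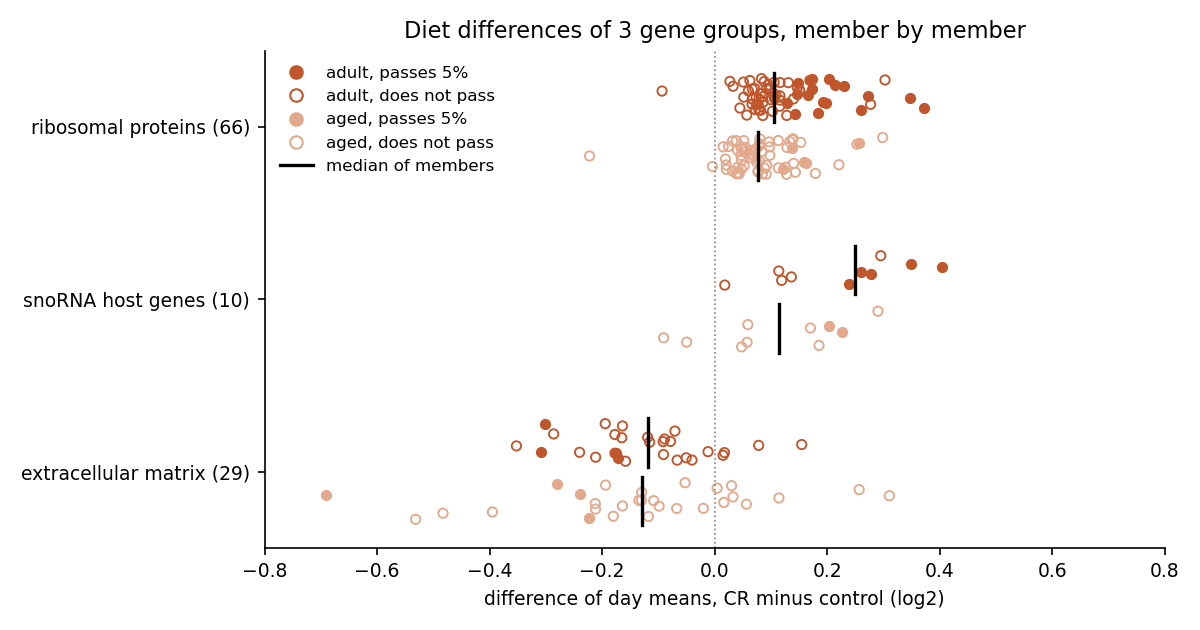
Difference of day means, CR minus control, on the log2 scale for each measured member of 3 gene groups in adult and in aged cells. Filled points pass limma's test at 5%, open points do not, and black bars mark the median of the members. Ribosomal protein and snoRNA host genes lie mostly right of 0 in both ages (adult medians 0.10 and 0.25) and extracellular matrix genes mostly left (adult median -0.12).

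Genes of the extracellular matrix lay lower. Of 29 measured, 4 fell, 0 rose and 25 did not pass, against 0.498% of all genes called lower, and 25 of 29 differences were below 0 with a median of -0.12. Col5a3, a fibrillar collagen chain, ran from 8.75 to 10.04 in control (median 9.26) and from 8.30 to 9.89 in CR (median 8.89), with 10 of 32 CR arrays below the lowest control array. It fell by 0.31 ± 0.06 (limma adjusted p = 0.0032), and by the mean of its probe sets it was at -0.20 (limma adjusted p = 0.11). Col3a1, the collagen of reticular fibres, had medians of 10.5 and 10.0 and fell by 0.30 ± 0.08 (limma adjusted p = 0.039). Timp2, an inhibitor of matrix proteases, and Sparc, a collagen-binding protein, fell by 0.18 ± 0.04 and 0.17 ± 0.05. Mmp2, the matrix protease that Timp2 binds, was at -0.29 ± 0.10 (limma adjusted p = 0.15), and is named after its value was seen. In 15 of 54 omissions of 1 array the count of calls was 2. It was 1 with the replicate block and 8 against aged controls, where Col3a1 was at -0.13 (limma adjusted p = 0.36).

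Markers of fibroadipogenic progenitors, the matrix-producing fibroblasts of muscle, lay lower as well. Of 9 measured, 2 fell, 0 rose and 8 were below 0, against 0.498% of all genes called lower, and the count was 1 without the control array T0 replicate 2 or T20 replicate 1. Dpt, a matrix protein, fell by 0.24 ± 0.06 (limma adjusted p = 0.016), but gave -0.07 against aged controls (limma adjusted p = 0.49). Gsn, an actin-severing protein, fell by 0.18 ± 0.05 (limma adjusted p = 0.023), and this call was lost under 5 of 18 alternatives. The mean of the 9 markers per array ran from 7.45 to 8.07 in control (median 7.66) and from 7.09 to 8.00 in CR (median 7.62). With this score as a covariate, 80 genes rose and 40 fell, and 2 of the 4 matrix calls were lost. Sparc gave the same -0.17 as without the score (limma adjusted p = 0.056), and Timp2 gave -0.14 (limma adjusted p = 0.075). The calls of Islr, Igsf10 and Steap4 were lost too, at -0.40, -0.62 and -0.56 against -0.51, -0.71 and -0.65 without the score (limma adjusted p = 0.083, 0.063 and 0.054). In all, 14 named calls were lost with this score. They also included Cish, Snapc4 and Zim1, which had risen, and Cpq, Ctsb, Dnajc3, Dusp15, Gsn and Me1. With the Schwann cell score as a covariate 9 named calls were lost, Sparc among them. The ribosomal protein count was again 19 with the fibroadipogenic progenitor score. Of the other cell type lists none had a call. Muscle stem cell markers were below 0 in 13 of 18 cases with a median of -0.04 (0.06 against aged controls, where 14 of 18 were above 0). Schwann cell markers were below 0 in 8 of 9 with a median of -0.07, which was -0.37 against aged controls. Over the 18 alternatives up to 6 of these 9 were called lower. Their median difference between the control arms, aged minus adult, was 0.31. Macrophage markers were above 0 in 5 of 5 with a median of 0.05. Lymphocyte markers were above 0 in 5 of 6, with a mean per array of 5.63 ± 0.11 (SD, n = 22) in control and 5.71 ± 0.08 (SD, n = 32) in CR. Among them the B cell gene Cd79a was at 0.29 ± 0.08 (limma adjusted p = 0.053), with 30 of 32 CR arrays above the control median, and it was called at T4 (0.80, limma adjusted p = 0.015).

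Chaperones of the endoplasmic reticulum, which fold secreted proteins, showed 2 falls among 19 genes of the unfolded protein response, with 14 below 0 and a median of -0.12, against 0.498% of all genes called lower. Hsp90b1 ran from 10.02 to 10.47 in control (median 10.25) and from 9.74 to 10.49 in CR (median 10.02), and 16 of 32 CR arrays lay below the lowest control array. It fell by 0.18 ± 0.04 (limma adjusted p = 0.019). Dnajc3, a co-chaperone, fell by 0.29 ± 0.08 (limma adjusted p = 0.049), and this call was lost in 35 of 54 omissions of 1 array. Against aged controls neither passed. Cytosolic heat shock genes had 0 of 14 calls but 13 below 0, with Hspb1 at -0.20 ± 0.06 (limma adjusted p = 0.087).

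Metabolic and signalling lists held few calls. In sterol and fatty acid synthesis, 1 of 14 genes rose and 1 fell, against 0.548% and 0.498% of all genes. Cyp51, a demethylase of the cholesterol pathway, rose by 0.37 ± 0.10 (limma adjusted p = 0.039), and malic enzyme Me1, a source of NADPH, fell by 0.33 ± 0.09 (limma adjusted p = 0.044). The Cyp51 call was lost under 5 of 18 alternatives. It gave 0.15 against aged controls and 0.21 with the mean of its probe sets (limma adjusted p = 0.25), and its second probe set was at 0.06. Me1 lost its call in 28 of 54 omissions of 1 array. The lysosomal protease Ctsb was the 1 call among 19 genes of autophagy and lysosome (-0.13 ± 0.04, limma adjusted p = 0.039, against 0.498% of all genes called lower). This call was lost under 5 of 18 alternatives, among them the mean of its 4 probe sets (limma adjusted p = 0.24), of which 1 was at 0.00. Pdk4, which diverts fuel from glucose to fat, was at 0.45 ± 0.13 and just missed the threshold (limma adjusted p = 0.069). Its values ran from 6.24 to 8.04 in control and from 7.09 to 8.94 in CR, with 12 of 32 CR arrays above the highest control array. Igfbp5, a binding protein of insulin-like growth factors, was at -0.40 ± 0.13 (limma adjusted p = 0.11) and the cell cycle gene Ccnd1 at -0.38 ± 0.11 (limma adjusted p = 0.055). Ccnd1 passed under 11 of 18 alternatives.

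No gene passed in the lists of glucocorticoid-induced genes (14 measured), FoxO and atrophy targets (13), insulin and mTORC1 signalling (17), fatty acid oxidation (16), glycolysis (15), oxidative phosphorylation (28), proteasome (22), cell cycle (20), interferon response (12), antigen presentation (16), Notch (14), Wnt (17) or myogenic commitment (14). Their medians lay between -0.09 and 0.09. Antigen presentation and complement genes were below 0 in 13 of 16 cases, and proteasome genes in 17 of 22.

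The same contrast was made in aged cells, between other arrays (26 CR, 24 control), which enter the adult test only through the estimate of the spread. With the 2 adult arms fitted alone, 100 genes were called, 85 of them among the 124, and Col3a1, Sparc and Rpl13 no longer passed. In aged cells 143 genes rose (1.21%) and 129 fell (1.09%), together 272 (2.29%). Of the 65 genes that rose in adult cells, 63 were above 0 in aged cells, and of the 59 that fell, 55 were below 0, where 49.2% of all genes were above 0. The aged test called 29 of the 124 with the same sign (12 higher and 17 lower) and 0 with the opposite sign. Across the 11853 genes, which are not independent, the adult and aged differences correlated at r = 0.359. No gene passed the test of the difference between ages (limma's interaction term, smallest adjusted p = 0.11), with 908 at an unadjusted p under 0.05.

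Several of the largest falls were of similar size in aged cells, while the fitted falls of Steap4 and Islr were smaller there. As no gene passed the test of the difference between ages, none of these is shown to differ by age. Thy1 fell by 0.80 ± 0.15, Cxcl13 by 0.81 ± 0.15, Igsf10 by 0.71 ± 0.18 and Dio2 by 0.57 ± 0.11 there. Col5a3 (-0.22), Col3a1 (-0.28), Sparc (-0.24), Dnajc3 (-0.35) and Morrbid (-0.34) also passed in aged cells. Steap4 (-0.24), Islr (-0.03) and Hgf (-0.20) did not, nor did Oaz2 (0.25), Taf1d (0.06) and Dgkz (0.02). Of the 66 ribosomal protein genes, 64 were above 0 with a median of 0.08 and 5 passed, and of the 10 snoRNA host genes 8 were above 0 with a median of 0.11. Extracellular matrix genes had a median of -0.13, with 4 calls.

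**Figure D3:**
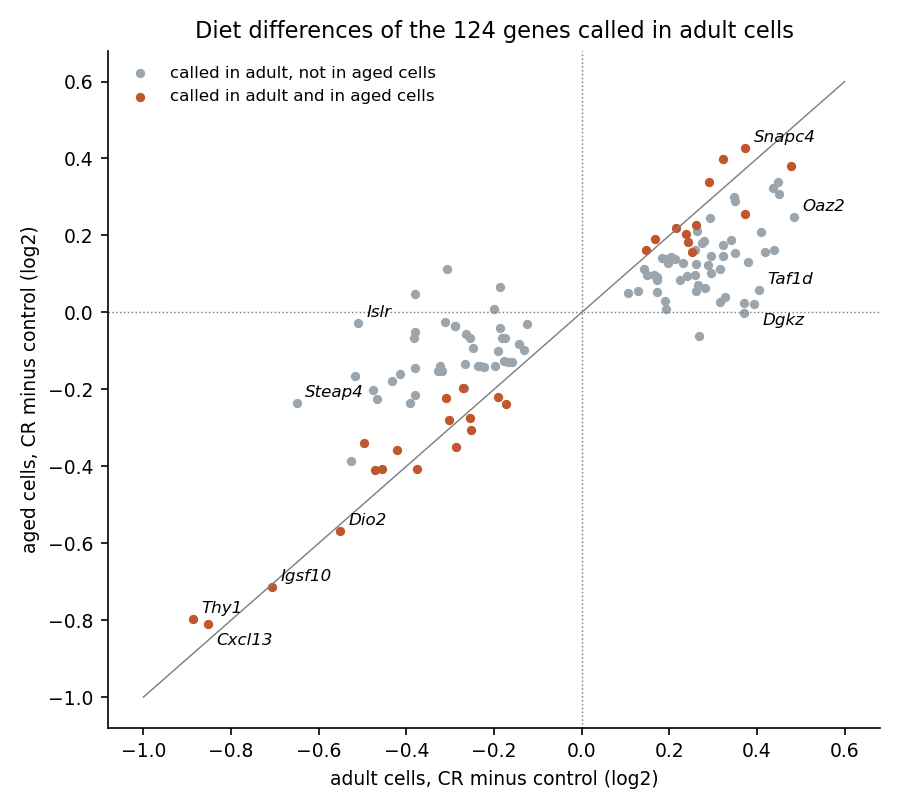
Difference of day means, CR minus control (log2), of the genes called for level in adult cells, with the adult value on the x axis and the aged value on the y axis. Orange points were called in aged cells too, and the solid line marks equal differences. Thy1, Cxcl13, Igsf10 and Dio2 lie near that line, and Islr, Steap4, Taf1d and Dgkz lie closer to 0 on the y axis.

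Because of the age tags, adult CR was also set against aged control arrays. By the titles this comparison differs in age as well as in diet, and diet and age cannot be told apart in it. This comparison called 728 genes (6.14%), 265 higher and 463 lower, and shares the 32 CR arrays with the main one. Of the 124 genes, 73 were called with the same sign. The 3 whose sign turned were Gal, a neuropeptide gene (-0.43 against adult and 0.22 against aged control), 2610042L04Rik (-0.31 and 0.05) and BC064078 (-0.19 and 0.04). These 3 and Thy1 were the genes of the 124 that differed between the control arms. Gal, 2610042L04Rik and BC064078 are named after their values were seen.

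Tested within each time, 10 genes were called at T0 (0.0844%), 51 at T4 (0.43%), 0 at T8 (0%), 16 at T12 (0.135%), 3 at T16 (0.0253%) and 0 at T20 (0%), where control has a single array whose spread was taken from the other groups. At an unadjusted p under 0.05 there were 1225, 1447, 838, 1230, 713 and 632 genes in the same order. T4 has the most arrays (5 and 6), the SD of the differences over genes was 0.22 there and 0.23 at T0 and T12, and no test compared the times. At T4, 36 genes were higher in CR and 15 lower. The 51 included 7 ribosomal protein genes, Rpl22, Rpl23a, Rpl36a, Rps12, Rps18, Rps19 and Rps24 (named after their values were seen), with differences from 0.27 to 0.78. The median difference of the 66 was 0.20 at T4 and between 0.06 and 0.12 at the other times, and 54 to 65 of them were above 0 at each time. Arntl, Dbp, Dhrs3 and Sphk2, whose rhythms are described next, were among the T4 calls.

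Daily rhythms were found under both diets. Rhythm was called in an arm where the cosine and sine of a 24 h curve passed limma's F test. There were 1256 such genes in control (10.6%) and 2650 in CR (22.4%), and 708 in both, which is 56.4% of the control list and 26.7% of the CR list. The number of arrays bears on these counts: with equal numbers per time the counts were 1197 and 1441. Among the 708 genes, the median amplitude (from day mean to peak, log2) was 0.36 in control and 0.31 in CR. The amplitude was larger in CR for 195 of them. Over all genes the median amplitudes were 0.14 in control and 0.13 in CR, with median SEs of 0.083 and 0.067. With its larger SE, a gene needs a larger fitted amplitude to pass in control. The 708 genes therefore cannot show which diet has the larger amplitudes. Fitted peaks lay within 2 h of each other for 529 of the 708 and more than 6 h apart for 2.

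The curves of 3 genes differed between diets by limma's F test on the cosine and sine (0.0253%), with 765 at an unadjusted p under 0.05. Sphk2, a kinase that makes sphingosine-1-phosphate, peaked at 10.1 h ± 0.24 in control and 8.0 h ± 0.24 in CR, a shift of -2.13 h ± 0.34 (limma adjusted p = 0.00015). At T4 its values ran from 7.06 to 7.50 in 5 control arrays and from 7.99 to 8.48 in 6 CR arrays, with no overlap. At T16 the order turned, with 7.22 to 7.88 in 4 control arrays and 6.56 to 6.82 in 5 CR arrays, again with no overlap.

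Dbp, a clock output factor whose annotated span overlaps that of Sphk2, shifted by -2.37 h ± 0.50 (limma adjusted p = 0.040). At T4 it ran from 6.52 to 6.97 in control and from 7.14 to 8.44 in CR, with no overlap, and at T16 from 6.61 to 7.26 against 6.23 to 6.71. Because the spans overlap, the signals of Sphk2 and Dbp may not be independent, which was not tested. The Dbp call was lost in 23 of 54 omissions of 1 array and with matched numbers of arrays (limma adjusted p = 0.49).

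Dhrs3, an enzyme that turns retinaldehyde back into retinol, shifted by -5.69 h ± 1.06 (limma adjusted p = 0.0014). In control it was highest at T0 and T4, where it ran from 6.51 to 8.81 and from 7.07 to 8.05. In CR it ran from 6.37 to 7.43 and from 5.91 to 6.53 at these times and was highest at T16, from 6.76 to 8.00. Its amplitude was 0.85 ± 0.12 in control and 0.46 ± 0.11 in CR. With the fixed replicate block neither Dhrs3 (limma adjusted p = 0.052) nor Dbp (limma adjusted p = 0.15) passed, and Sphk2 was the 1 call left. Against aged control arrays, which share the CR arrays with this comparison, 14 genes (0.118%) were called for a rhythm difference. Sphk2 was at -2.74 h ± 0.38 there (limma adjusted p = 1.9e-05) and Dhrs3 at -7.35 h ± 1.33 (limma adjusted p = 0.042), and both passed. Dbp was at -2.54 h ± 0.67 and did not (limma adjusted p = 0.13). All 3 genes were also among the 46 genes (0.388%) whose curves differed between diets in aged cells, with shifts of -2.59 h, -3.38 h and -6.25 h for Sphk2, Dbp and Dhrs3.

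**Figure D4:**
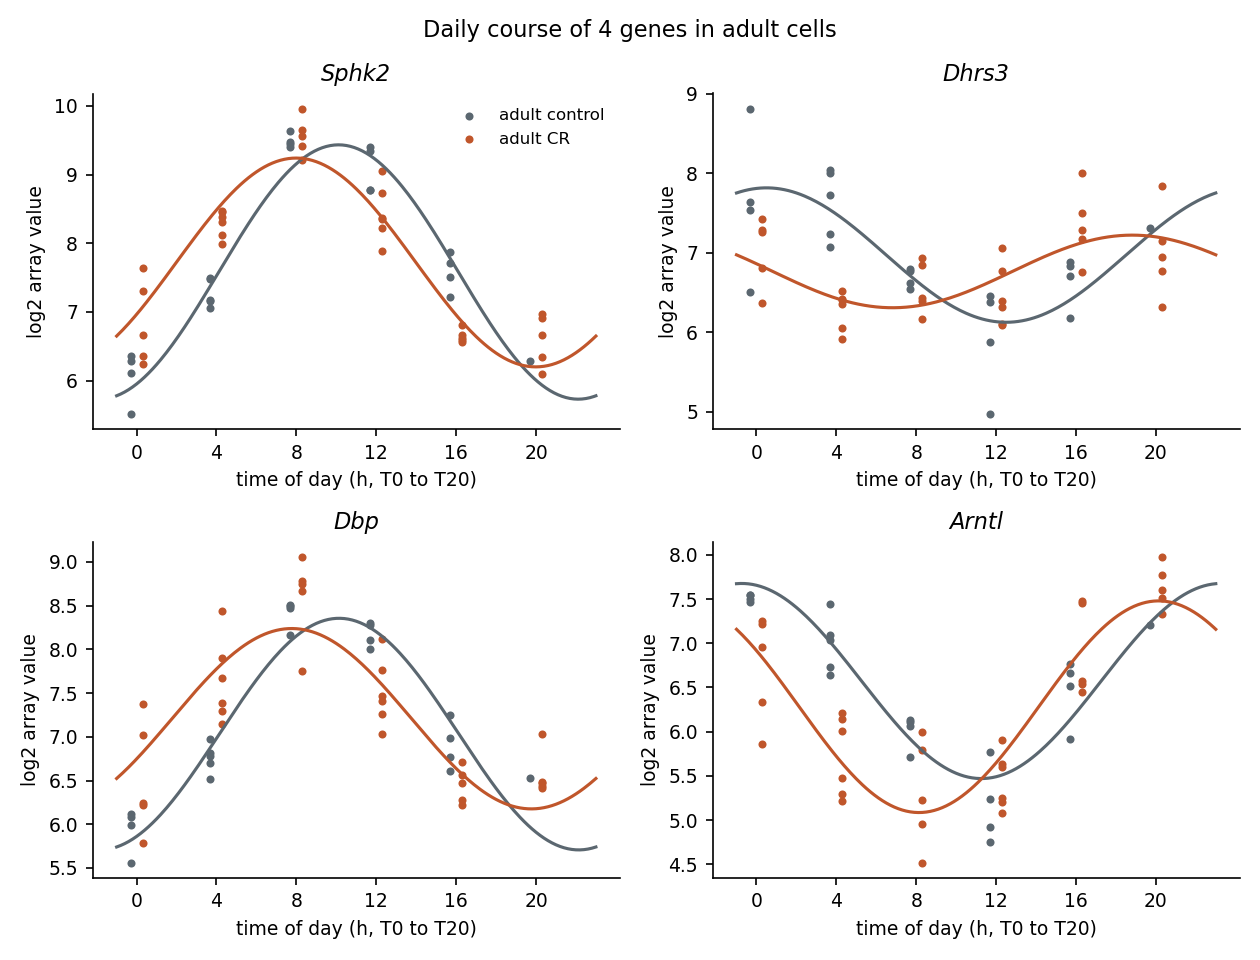
Log2 array values of Sphk2, Dhrs3, Dbp and Arntl over the day in adult cells, with 1 point per array (22 control, 32 CR) and the fitted 24 h curve of each diet. In each panel the CR curve runs ahead of the control curve, by 2.13 h for Sphk2, 5.69 h for Dhrs3, 2.37 h for Dbp and 3.13 h for Arntl, whose difference did not pass the test.

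The next 9 genes by p did not pass. Arntl, the activator of the clock, was first, with a shift of -3.13 h ± 0.66 (limma adjusted p = 0.083). At T4 it ran from 6.64 to 7.44 in control and from 5.22 to 6.21 in CR, with no overlap, and at T0 from 7.47 to 7.55 against 5.86 to 7.25. The groups did not overlap there either. Arntl passed under 3 of 18 alternatives. These were a separate fit of the adult arms (limma adjusted p = 0.015), array weights (limma adjusted p = 0.046) and the aged controls (-3.37 h ± 0.58, limma adjusted p = 0.0041). Under the other 15 it did not pass, with a limma adjusted p of up to 0.53. Cpt1a, which admits fatty acids to mitochondria, had a fitted peak 6.44 h ± 1.36 later in CR (limma adjusted p = 0.13) and an amplitude of 0.33 ± 0.12 in control and 0.57 ± 0.09 in CR. For Abat, the enzyme that degrades GABA, the amplitude was 0.19 ± 0.12 in control and 0.77 ± 0.09 in CR. Sec63, a translocation factor of the endoplasmic reticulum, had an amplitude of 0.55 ± 0.09 in control and 0.10 ± 0.08 in CR. The remaining genes were Phf24, Oxct1, Inpp1, Brap and Yipf5, with limma adjusted p from 0.22 to 0.35.

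Of 19 clock genes measured, 0 passed for level, with 3 at an unadjusted p under 0.05, and the differences ran from -0.29 (Arntl) to 0.25 (Usp2). Usp2, a clock-controlled protease, passed against aged controls (0.34, limma adjusted p = 0.020). Of the 19, 12 were rhythmic in control and 17 in CR, and 11 in both, against 10.6% and 22.4% of all genes. With matched numbers of arrays 12 were rhythmic in control, 14 in CR and 11 in both. In CR, 9 of these 11 peaked earlier and 2 later. Besides Arntl and Dbp, the shifts were -2.39 h ± 0.81 for Nfil3, a repressor of D-box genes, -2.30 h ± 0.67 for Per3, -2.15 h ± 1.47 for Bhlhe41, -1.77 h ± 0.54 for Npas2, a paralogue of Clock, -1.76 h ± 0.74 for Tef and -1.36 h ± 0.40 for Nr1d2. The peaks of Per1 (-0.02 h ± 0.74), Hlf (0.02 h ± 1.09) and Per2 (0.72 h ± 0.82) moved by less than 1 SE. Of these 11 genes Dbp alone passed the test of a curve difference. The mice carry a Per1 reporter transgene, and the labels do not say whether its transcript is read by the Per1 probes.

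**Figure D5:**
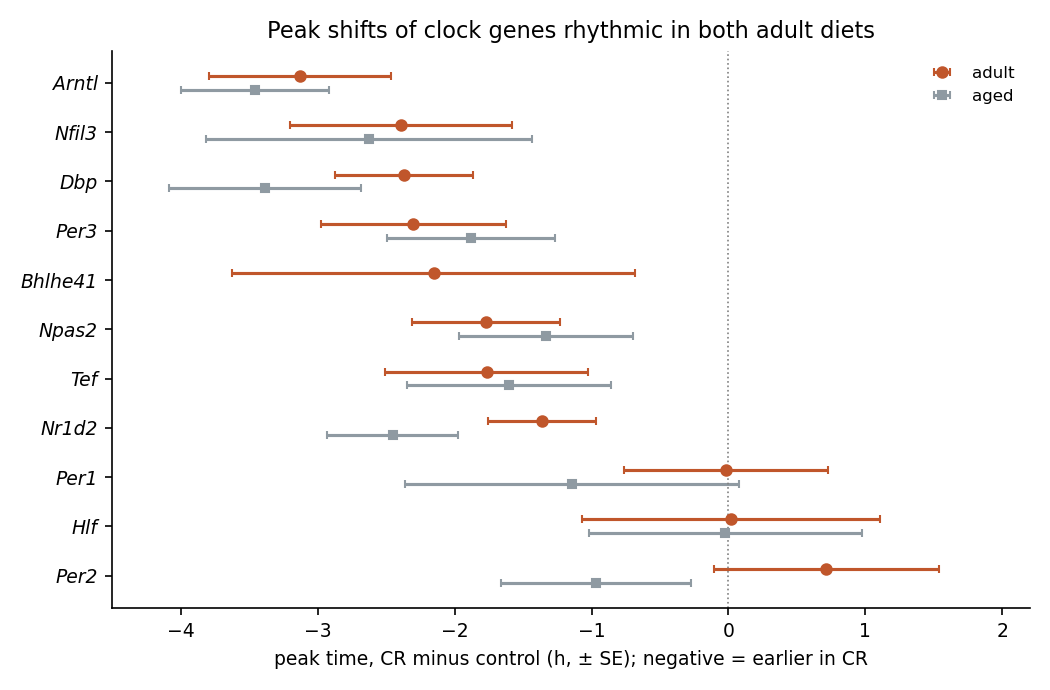
Shift of the fitted peak, CR minus control in hours (± SE), for the 11 clock genes rhythmic under both diets in adult cells, with the aged value where the gene was rhythmic in both aged arms. In adult cells Arntl, Nfil3, Dbp, Per3, Bhlhe41, Npas2, Tef and Nr1d2 lie left of 0 by more than 1 SE, and Per1, Hlf and Per2 do not.

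The promoters of the clock genes were read for the 3 classical clock motifs, in windows from 250 bases before to 50 after each start (RefSeq, GRCm38.p6, both strands). The motifs were CACGTG (E-box, bound by the activator complex), TTATGNAA (D-box, bound by Dbp, Tef and Hlf) and TAGGTCA (RORE, bound by the Ror and Nr1d receptors). Of 32851 windows 7.15% held the E-box, 3.38% the D-box and 2.61% the RORE. Counted per gene, 11.6%, 2.56% and 2.31% of the 9543 tested genes with a window held them, and 4, 2 and 2 of 16 clock genes did. The matches are shown in capitals, as letters found and not as sites shown to be bound.
Arntl, RORE (chr7:113207530-113207559, plus strand): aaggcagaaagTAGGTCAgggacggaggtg
Nfil3, RORE read on the opposite strand (chr13:52981033-52981062, minus strand): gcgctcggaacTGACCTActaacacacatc
Per3, D-box (chr4:151044805-151044834, minus strand): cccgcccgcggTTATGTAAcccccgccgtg
Tef, E-box (chr15:81802535-81802564, plus strand): tgctgtggctcCACGTGctgcagctggcac
Per1, E-box (chr11:69098772-69098801, plus strand): gcacccaagtcCACGTGcagggatgtgtgt

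The RORE letters were found in Arntl and Nfil3, whose fitted peaks under control were at 23.3 h and 20.2 h and lay earlier in CR by the amounts given above. The D-box letters were found in Per3 and Per1, and the E-box letters in Tef and Per1 among others, so both of these motifs occurred in genes with an earlier fitted peak and in Per1, whose peak moved by less than 1 SE.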

How the data were processed

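RNA of mouse muscle stem cells was amplified and hybridised to Affymetrix arrays, per the labels' protocols (25 ng RNA, 17 cycles, 8 µg cDNA). The authors deposited 1 table of RMA values, whose log2 scale is inferred from the range of 1.19 to 12.8. The RMA version and the gate used to isolate the cells are not given in the sources used here. The table holds 45141 probe sets, of which 28898 have 1 gene symbol, 551 several and 15692 none. The number of arrays limits the precision.

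The probe set of highest mean stood for each gene, and 11853 genes with a mean at or above the 40th percentile (log2 4.50) were tested. limma 3.58.1 (R 4.3.3) fitted to each of the 4 arms its own day mean and 24 h curve (cosine plus sine), over all arrays of the series together, with lmFit and eBayes. The level difference is CR minus control of the day means, and p-values were adjusted over all tested genes by Benjamini-Hochberg. The fit was tested on simulated data. P-values measure only the spread between arrays, which may in part be technical. Median differences of all genes were 0.01 or less under both scalings tried.

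Genes named are all measured clock genes, the 12 largest calls each way with the same sign at 5 or more times, the 6 of smallest p, the 12 of smallest p for rhythm, and up to 4 called members (or the one of smallest p) of each of 27 pathway lists, with the 2 brightest and all called markers of 12 cell type lists. Members and lists were chosen with earlier results of these data known. Replicate numbers were not taken as a pairing of the arrays. The alternatives were 18 settings and the omission of each of 54 arrays.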

Additional observations from a re-analysis of the deposited data

Results flagged for a closer look

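In 55 sets of arrays (11 groups of 4 to 6 arrays, each for Sphk2, Dhrs3, Dbp and Arntl and for the mean correlation of an array with its group) 4 arrays lay far from the rest by Dixon's test. Chance gives such a result in about 1 of 20 sets. Dbp was at 8.1643 in the control array T8 replicate 4, where the nearest other array was at 8.4785. Dbp was at 7.0368 in the CR array T20 replicate 4, where the nearest was at 6.4835. The mean correlation of that same CR array with its group was 0.95952, and the next lowest was 0.96764. Arntl was at 5.709 in the control array T8 replicate 1, where the nearest was at 6.0679. Without the CR array T20 replicate 4, 131 genes were called for level (70 higher, 61 lower), 3 for a rhythm difference, 1282 as rhythmic in control and 2503 as rhythmic in CR.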

How the results depend on the processing

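Over the alternatives other than the aged control arrays, the number of genes called for level ran from 86 (Schwann cell score as a covariate) to 184 (first residual component), and it was 728 against aged control arrays. Leaving out 1 array gave 77 to 188 for level, 2 to 5 for a rhythm difference, 962 to 1295 for rhythmic genes in control and 2407 to 2680 in CR. The 77 came without the control array T16 replicate 3 (73 of them also called with all arrays), the 188 without the control array T0 replicate 1, and the 5 without the CR array T4 replicate 5. Genes called for a rhythm difference numbered 8 with time as 6 levels, 6 with array weights, 1 with the fixed replicate block and 14 against aged control arrays (a setting chosen after seeing the data). Rhythmic genes numbered 1441 in CR with matched numbers of arrays and 820 in control with the Schwann cell score. In aged cells, rhythm differences numbered 16 with a separate fit, 102 with time as 6 levels, 22 without T20 and 106 with the first residual component. Aged level calls numbered 145 without T20, and the difference between ages gave 1 call with time as 6 levels. At single times, no filter gave 16 calls at T0, 7 at T12, 0 at T16 and 6 at T20, the mean of probe sets gave 1 at T8 and 0 at T16, and a separate fit gave 1 at T16. With the fibroadipogenic progenitor score the split was 80 higher and 40 lower, against 65 and 59. Of 62 genes of the naming rule, 0 called ones changed sign under these 18 settings. Srxn1, which did not pass, went from -0.21 to 0.01 against aged controls, where Gal, 2610042L04Rik and BC064078 also turned. Beyond what fewer genes or arrays account for, the cause was not tested.

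Same-numbered arrays of the 2 diets deviated together little (21 pairs, r from -0.10 to 0.18, 4 over 0.1), so the numbers were not taken as a pairing. These correlations cannot exclude a batch shared by number. With the replicate block, fixed, 120 genes were called for level, 66 of them among the 124 of the main test, and with a random block 155.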

Other observations

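The following genes, called for level and not named by the rule, were chosen after their values were seen and stand for no group. Psap, the precursor of the saposins that help degrade sphingolipids, fell by 0.19 ± 0.04 (limma adjusted p = 0.0032). Scarb2, the receptor that carries glucocerebrosidase to the lysosome, fell by 0.25 ± 0.07. Nid1, a basement membrane protein, fell by 0.38 ± 0.10, and Osmr, the oncostatin M receptor, by 0.46 ± 0.12. Mgll, which cleaves monoacylglycerols, fell by 0.38 ± 0.09. Nsa2, a ribosome assembly factor, rose by 0.30 ± 0.06 (limma adjusted p = 0.0032), and Ep400, a chromatin remodeller, by 0.24 ± 0.05 (limma adjusted p = 0.0020). Cebpb, a transcription factor, rose by 0.26 ± 0.07, and Tnip1, an inhibitor of NF-kappaB signalling, by 0.29 ± 0.08.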
